A study of Mus musculus with 6 samples.

Results

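The giant ubiquitin ligases *Huwe1*, *Ubr4*, *Herc1*, *Herc2*, *Hectd4*, *Mycbp2*, *Rnf213* and *Trip12* were examined in splenic monocytes of mice with and without the interleukin-4 receptor α chain (IL-4Rα). These 8 genes were chosen by name as ubiquitin ligases with very long transcripts, to set the lower level of long genes in the knockout in context. All 8 were found, and all 8 passed a filter on low counts, as did 13849 of the 55421 genes in the count files. RNA of 6 adult C57BL/6 mice was sequenced, 1 library per mouse, from 3 IL-4Rα-/- mice, in which every cell of the body lacks the receptor chain, and 3 IL-4Rα+/+ littermates. The labels give no sex and no treatment. Spleen cells other than monocytes were bound by antibodies and removed with magnetic beads, so the RNA is that of the cells left over and not of a sorted gate.

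Counts on genes summed to 26807281 to 29033297 per library, of which a ligase took between 1366 (*Hectd4*) and 31941 (*Rnf213*). Levels are given as CPM, counts scaled to a common library total after edgeR's TMM scaling, a correction for differences in the make-up of the libraries. *Il4ra*, the targeted gene, had 137, 128 and 177 CPM in IL-4Rα+/+ replicates 1, 2 and 3, and 27.9, 79.4 and 31.8 CPM in IL-4Rα-/- replicates 1, 2 and 3. These counts cover the whole gene, and which part of it is deleted is not given in the labels. The groups did not overlap, and IL-4Rα-/- replicate 2 kept the most *Il4ra* reads of the knockout libraries. The same library stood apart in its pancreatic enzymes, as given beside the markers of other cell types.

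Ubiquitin is joined to proteins in a relay of an activating enzyme (E1), a conjugating enzyme (E2) and a ligase (E3), and the ligase picks the substrate. HECT ligases take ubiquitin onto a cysteine of their own before passing it on, whereas RING ligases hold the loaded E2 next to the substrate. The giant ligases are among the largest proteins a cell makes, and they serve protein quality control, the turnover of regulators of growth and death, the DNA damage response and, for RNF213, defence against bacteria and viruses. *Huwe1*, *Herc1*, *Herc2*, *Hectd4* and *Trip12* encode HECT ligases. *Ubr4* encodes a ligase that recognises destabilising N-termini, and *Mycbp2* and *Rnf213* encode RING-type ligases with unusual catalytic parts.

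Protein lengths were taken from each gene's longest protein-coding transcript in GENCODE. They were 4378 residues for HUWE1, 5180 for UBR4, 4859 for HERC1 and 4836 for HERC2. HECTD4 had 4418, MYCBP2 4746, RNF213 5151 and TRIP12 2025 residues. The longest protein-coding transcripts measured 14579 to 16716 bp for the other 7 and 9632 bp for *Trip12*, the shortest. Between 41 exons in *Trip12* and 106 exons in *Ubr4* were joined in these transcripts. The genes were spread over 8 chromosomes, and none neighbours another. In GRCm38, *Huwe1* (ENSMUSG00000025261.17) lies on the plus strand of chromosome X from 151800807 to 151935417, *Ubr4* on chromosome 4 from 139352609 to 139489588, *Herc1* on chromosome 9 from 66350450 to 66508775 and *Herc2* on chromosome 7 from 56050196 to 56231800. *Hectd4* lies on chromosome 5 from 121220219 to 121368577 and *Rnf213* on chromosome 11 from 119393100 to 119487418, all on the plus strand. *Mycbp2* on chromosome 14 from 103113411 to 103346814 and *Trip12* on chromosome 1 from 84721189 to 84840516 lie on the minus strand.

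The promoters of the ligases are shown because the genes varied together across the libraries, as described below for their levels. RefSeq windows of GRCm38.p6, 300 bases long and reaching from upstream to just past a start site, were at hand for 7 of the 8 genes, all but *Mycbp2*, with 2 windows for *Herc2*. Motifs were searched on both strands. Capitals mark a palindrome of 10 bases around CGCG in *Huwe1* and *Herc1* and the letters AAGATGGC, a YY1 motif, in *Ubr4* and *Hectd4*.
Huwe1, chrX:151803032-151803331, plus strand: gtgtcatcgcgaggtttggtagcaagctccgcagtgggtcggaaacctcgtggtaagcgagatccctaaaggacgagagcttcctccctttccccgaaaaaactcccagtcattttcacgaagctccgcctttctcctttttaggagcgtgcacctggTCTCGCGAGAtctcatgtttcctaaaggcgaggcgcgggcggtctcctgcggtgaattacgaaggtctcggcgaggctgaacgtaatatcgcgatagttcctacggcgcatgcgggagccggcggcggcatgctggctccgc
Herc1, chr9:66350200-66350499, plus strand: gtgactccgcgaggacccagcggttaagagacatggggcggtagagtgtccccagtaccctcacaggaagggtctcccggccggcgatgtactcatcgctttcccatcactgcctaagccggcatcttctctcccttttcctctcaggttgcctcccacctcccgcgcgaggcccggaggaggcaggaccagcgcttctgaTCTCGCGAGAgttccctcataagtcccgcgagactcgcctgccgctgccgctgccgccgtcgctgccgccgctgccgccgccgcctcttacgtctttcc
Ubr4, chr4:139380409-139380708, plus strand: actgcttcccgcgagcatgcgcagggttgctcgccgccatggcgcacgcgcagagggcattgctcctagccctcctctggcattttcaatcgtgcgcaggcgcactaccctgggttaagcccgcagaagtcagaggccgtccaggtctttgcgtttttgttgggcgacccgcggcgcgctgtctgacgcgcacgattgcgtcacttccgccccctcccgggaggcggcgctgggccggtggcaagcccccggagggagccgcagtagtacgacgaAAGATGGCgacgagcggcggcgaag
Hectd4, chr5:121219969-121220268, plus strand: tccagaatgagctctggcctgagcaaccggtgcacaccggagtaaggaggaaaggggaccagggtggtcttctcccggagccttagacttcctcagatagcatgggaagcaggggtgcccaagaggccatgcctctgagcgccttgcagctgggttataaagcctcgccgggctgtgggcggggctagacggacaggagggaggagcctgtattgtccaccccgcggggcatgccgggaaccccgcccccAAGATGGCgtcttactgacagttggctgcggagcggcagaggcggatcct

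The palindrome began 92 bases before the start site in *Huwe1* and 49 bases before it in *Herc1*, and 0.466% of all 32851 windows held it. The YY1 motif began at base 26 of the transcript in *Ubr4* and at base 1 in *Hectd4*, and 2.75% of windows held it. None of the 7 genes had both motifs. The Sp1 motif GGGCGG was the most common, in 6 of 7 genes, all but *Trip12*, against 35.7% of windows. Of the other words searched, the NRF1 palindrome, CCGGAAG (ETS) and TGACGTCA (CRE) were in 0 of 7, CCAAT in *Herc2* alone and TATAAA in *Hectd4* alone. Only in *Herc2* did matches overlap, a CCAAT box with an Sp1 motif. The windows were rich in G and C, with 58.3% to 71.3% against a median of 52.7%, and held 16 to 38 CG pairs against a median of 7. STAT6 is the factor that IL-4Rα activates, and its motif, TTC and GAA around 4 free bases, was in 0 of 7 genes and in 6.95% of windows. The interferon response element, a pair of GAAA around 2 free bases, was in 0 of 7 genes and in 3.44% of windows. A match is only a word in these bases, and no match says nothing of the factor or of sites elsewhere.

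The ligases differed widely in their level. To compare genes, CPM was divided by the length of the longest transcript in kilobases, and the values are the mean ± SD over the 6 libraries. *Rnf213* stood highest, at 52.0 ± 10.3 CPM per kb (SD, n = 6), and *Hectd4* lowest, at 3.83 ± 0.505 CPM per kb (SD, n = 6). Between them came *Trip12* with 29.6, *Mycbp2* with 25.3, *Huwe1* with 18.9, *Ubr4* with 16.3, *Herc1* with 12.2 and *Herc2* with 11.5 CPM per kb. Only the ends of this order were apart, since the 6 libraries of *Rnf213* did not overlap those of *Trip12*, nor those of *Herc2* those of *Hectd4*. Every other pair of neighbours overlapped in range. Within a library the order still held in 6 of 6 libraries for *Mycbp2* over *Huwe1*, *Huwe1* over *Ubr4* and *Ubr4* over *Herc1*, and in 5 of 6 for *Trip12* over *Mycbp2*. *Herc1* was above *Herc2* in 3 of 6 libraries, so the levels of these paralogs could not be told apart.

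The comparison of the genotypes asks whether the ligases as a family were lower in IL-4Rα-/- monocytes, and by how much. All 8 had a lower mean in IL-4Rα-/- than in IL-4Rα+/+ libraries, by log2 fold changes of -0.35 in *Herc1* to -0.11 in *Trip12*, with a median of -0.31 against 0.01 over all 13849 genes tested. None passed edgeR's quasi-likelihood test at the study's threshold of 0.15 after Benjamini-Hochberg adjustment over the whole table, in which 0% of genes passed. Their adjusted p-values were 0.618 to 0.658. At an unadjusted p under 0.05 in edgeR, 5 of the 8 were lower, against 4.37% of all genes. The 3 knockout libraries lay below all 3 IL-4Rα+/+ libraries in 6 of the 8, against 7.87% of all genes, and above them in 0 of the 8, against 7.63%. Of all 1120 genes at an unadjusted p under 0.05, 54.0% were lower, a share that moved to 38.3% with upper-quartile scaling and to 69.2% after removal of a trend with GC content. The median of the 8 ligases was -0.29 and -0.34 in these settings, and all 8 were lower in both. In whole RNA of a cell preparation, fewer cells of a type and less RNA per cell cannot be told apart.

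**Figure D1:**
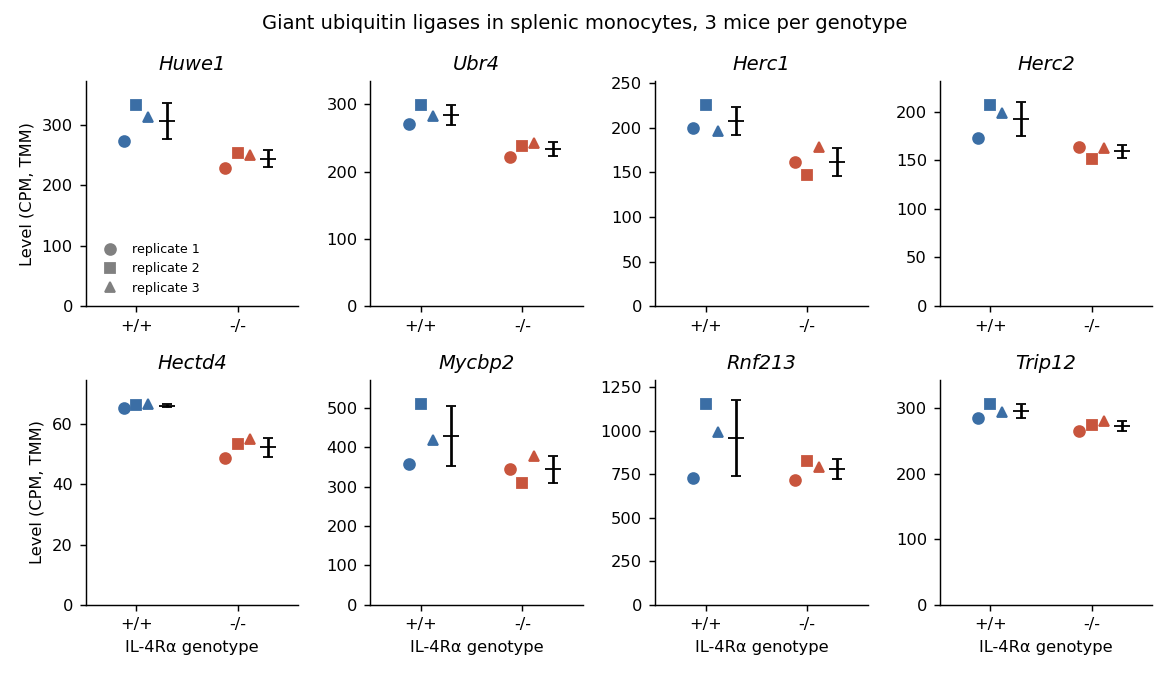
Level of each giant ubiquitin ligase in CPM (y axis, from 0) by IL-4Rα genotype (x axis), with 1 point per mouse, the replicate number as the shape, and the mean ± SD of 3 mice beside the points. The 3 knockout mice lie below the 3 IL-4Rα+/+ mice in 6 of the 8 genes, and the genotypes overlap in *Mycbp2* and *Rnf213*, where IL-4Rα+/+ replicate 1 is low.

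*Hectd4* had the closest values within IL-4Rα+/+. It was at 65.5, 66.2 and 66.7 CPM in IL-4Rα+/+ replicates 1, 2 and 3 and at 48.8, 53.4 and 54.9 CPM in IL-4Rα-/- replicates 1, 2 and 3. The mean was 66.1 ± 0.627 CPM (SD, n = 3) in IL-4Rα+/+ and 52.3 ± 3.18 CPM (SD, n = 3) in the knockout. The spread was thus wider in the knockout, and an SD of 3 libraries is a rough measure of the variation between mice. Its log2 fold change was -0.34 with a standard error of 0.07 in edgeR (adjusted p = 0.618), and by unadjusted p it ranked 32 among 13849 genes. With DESeq2, the tool the study names, its adjusted p-value of 0.151 lay just outside the threshold and was the smallest of the 8. HECTD4 is one of the less studied HECT ligases.

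*Huwe1*, whose product marks the survival factor MCL1, p53 and MYC proteins among others, had 274, 333 and 313 CPM in IL-4Rα+/+ and 228, 254 and 251 CPM in IL-4Rα-/- replicates 1, 2 and 3. All knockout libraries lay below the lowest IL-4Rα+/+ library, and the log2 fold change was -0.33 with a standard error of 0.10. *Huwe1* is the X-linked member, and the libraries were of mixed sex. *Xist*, which is made from the inactive X chromosome of females, was at 553 and 457 CPM in IL-4Rα+/+ replicate 1 and IL-4Rα-/- replicate 3 and at 3.73 CPM or less in the other 4 libraries. With *Xist* as a covariate, the log2 fold change of *Huwe1* was again -0.33 with a standard error of 0.10.

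*Ubr4*, the N-degron ligase, had 270, 299 and 283 CPM in IL-4Rα+/+ and 222, 238 and 242 CPM in IL-4Rα-/- libraries. The groups were apart, with a log2 fold change of -0.28 and a standard error of 0.08. Its exons share 109 bp with *Emc1* on the same strand, and STAR leaves reads on such bases out of both genes.

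The HERC ligases carry domains like RCC1 beside their HECT domain. *Herc1* had 199, 225 and 197 CPM in IL-4Rα+/+ and 161, 147 and 178 CPM in IL-4Rα-/- libraries, the lowest log2 fold change of the 8 at -0.35 with a standard error of 0.10. *Herc1* shares 317 bp of exon with *Fbxl22* on the other strand, which had 229 counts over all 6 libraries against 4186 or more of *Herc1* in each library. *Herc2*, known for its part in the DNA damage response, had 173, 207 and 198 CPM against 163, 152 and 163 CPM. In *Herc2* the groups were apart by a narrow margin between IL-4Rα+/+ replicate 1 and the knockout libraries. Its log2 fold change was -0.27 with a standard error of 0.09. It was the member at the edge of an unadjusted p of 0.05, which it missed without IL-4Rα+/+ replicate 2 or 3 and without IL-4Rα-/- replicate 2.

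The RING-type ligases varied most between mice. *Mycbp2*, which works with the F-box protein FBXO45 and is best known from the growth of axons, had 357, 510 and 418 CPM in IL-4Rα+/+ and 345, 309 and 378 CPM in IL-4Rα-/- libraries. *Rnf213*, an ATPase and ligase known as the susceptibility gene of moyamoya disease, had 728, 1156 and 994 CPM against 717, 828 and 791 CPM. In both genes IL-4Rα+/+ replicate 1 lay among the knockout libraries, and replicate 2 was the highest of all. The log2 fold changes were -0.32 with a standard error of 0.15 for *Mycbp2* and -0.30 with a standard error of 0.17 for *Rnf213*. Single mice set these values. Without IL-4Rα+/+ replicate 2 they were -0.17 for *Mycbp2* and -0.15 for *Rnf213*, and without replicate 1 they were -0.43 and -0.47, both then at an unadjusted p under 0.05 in edgeR.

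*Trip12*, which limits the chromatin ligase RNF168 and acts on fused ubiquitin, had 286, 307 and 295 CPM in IL-4Rα+/+ and 266, 275 and 281 CPM in IL-4Rα-/- libraries. The groups were apart, yet the difference was the smallest of the 8, at -0.11 with a standard error of 0.07. It is also the ligase with the shortest transcript.

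In a two-sided exact permutation test on CPM, each of the 6 genes whose groups did not overlap had p = 0.1, the smallest that 20 labelings of 3 against 3 allow, so no single gene could pass 0.05 in it. For *Mycbp2* p was 0.2 and for *Rnf213* 0.3. Among all genes ordered from the lowest log2 fold change, the 7 ligases other than *Trip12* stood between the percentiles 9.03 and 12.8, and *Trip12* at 29.6. The ligases were thus on the low side of all genes without being at its end.

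The 8 genes shared their pattern across mice. Over the 6 libraries, Pearson's r of log2 CPM was between 0.620 for *Herc1* with *Rnf213* and 0.977 for *Huwe1* with *Ubr4* among the 28 pairs, a description in which genotype and library are shared by all points. Each gene's mean over the 6 libraries was then set to 0. The mean deviation of the 8 ligases on the log2 scale was 0.00, 0.27 and 0.15 in IL-4Rα+/+ replicates 1, 2 and 3 and -0.19, -0.16 and -0.07 in IL-4Rα-/- replicates 1, 2 and 3. IL-4Rα+/+ replicate 2 was the high library in 7 of 8 ligases, all but *Hectd4*, and IL-4Rα+/+ replicate 1 was near the middle. The median of 317 other genes with transcripts as long was 0.07, 0.18 and 0.04 in IL-4Rα+/+ and -0.10, -0.17 and -0.05 in IL-4Rα-/- libraries. Those long genes were highest in IL-4Rα+/+ replicate 2 as well, whereas the medians of shorter genes were -0.0049 to 0.011.

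**Figure D2:**
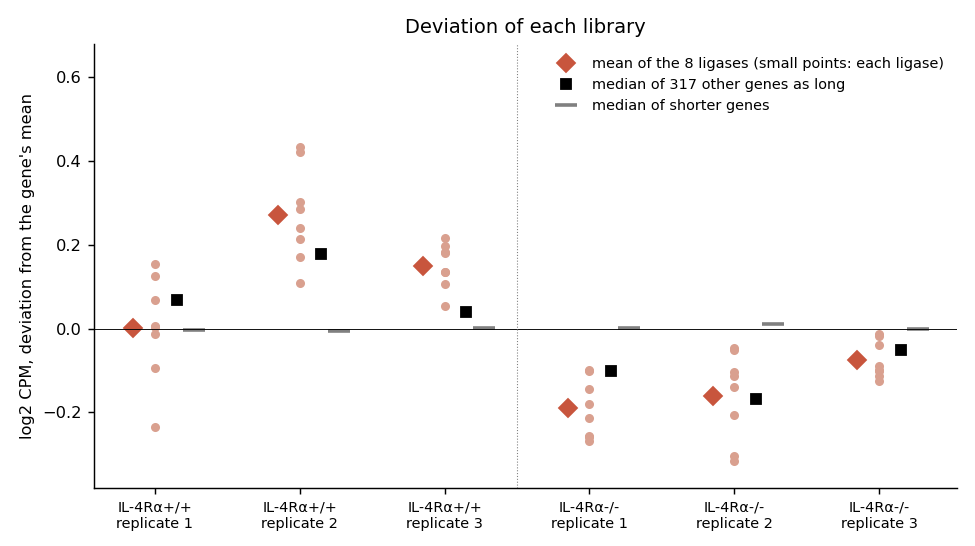
Deviation of log2 CPM from each gene's mean over 6 libraries (y axis) by library (x axis), with small points for each ligase, diamonds for the mean of the 8 ligases, squares for the median of 317 other genes as long, and dashes for the median of shorter genes. The mean of the ligases runs from 0.27 in IL-4Rα+/+ replicate 2 to -0.19 in IL-4Rα-/- replicate 1, while shorter genes stay near 0 in every library.

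Other long transcripts were lower in the knockout as well. Of 317 other genes at least as long as *Trip12*, 244 were lower in the knockout and 73 higher, with a median log2 fold change of -0.22. At an unadjusted p under 0.05, 28.7% of them were lower and 1.58% higher, and in 30.6% all knockout libraries lay below all IL-4Rα+/+ libraries. Among the 127 of these genes whose mean was at least as high as that of *Hectd4*, 118 were lower, with a median of -0.27. Of the 127, 55.9% were lower at an unadjusted p under 0.05, and in 57.5% all knockout libraries lay below all IL-4Rα+/+ libraries. By contrast, the 13512 shorter genes had a median of 0.01.

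The median log2 fold change of the other genes went down from 0.12 for transcripts under 1000 bp to -0.18 for 8000 to 10000 bp, was -0.17 in the 153 genes of 10000 to 12000 bp, and reached -0.26 in the 120 genes of 12000 bp or more. The 7 ligases of that length class differed from its median by -0.02 (*Herc2* and *Ubr4*) to -0.10 (*Herc1*), and 27.5% to 43.3% of the class had a lower log2 fold change than they did. *Trip12* was 0.06 above the median of its class, and 62.6% of that class was lower. Over all 13837 genes with a length, Spearman's rho of log2 fold change with transcript length was -0.25, a correlation across genes, which are not independent. Within the 8 ligases rho was 0.00, while Pearson's r with log2 length was -0.87, which rests on *Trip12*, since the other 7 are of nearly the same length.

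**Figure D3:**
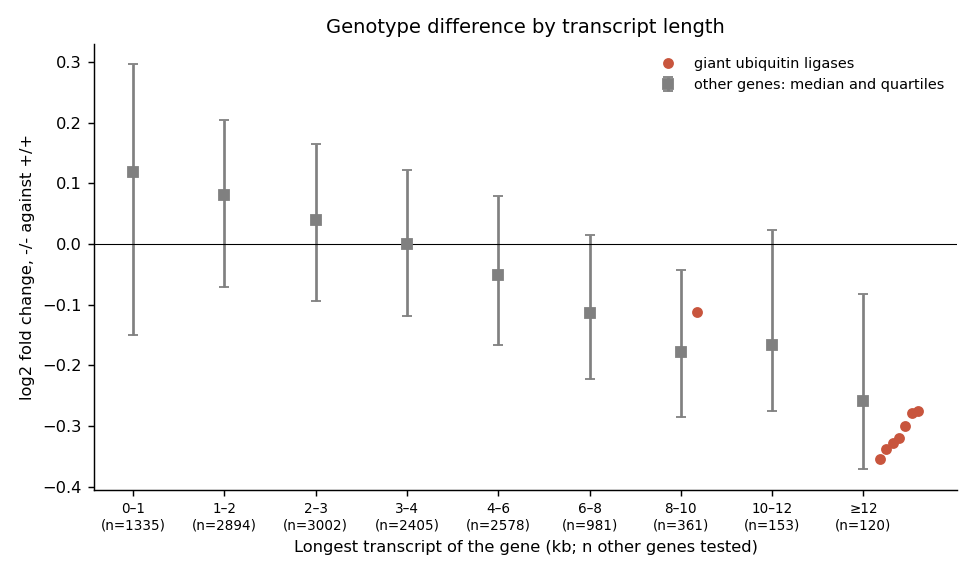
Log2 fold change of IL-4Rα-/- against IL-4Rα+/+ (y axis) by the length of a gene's longest transcript in kb (x axis), with squares and bars for the median and quartiles of the other genes and circles for the 8 ligases. The medians go down from 0.12 to -0.26 but for a step of -0.18 to -0.17 between the 8 to 10 and the 10 to 12 kb classes, and 7 ligases lie just under the median of the longest class.

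When each library was freed of its loess trend of counts with transcript length, the differences of the ligases shrank. The median of the 8 was then -0.12, and 1 of them, *Herc1*, had an unadjusted p under 0.05, at -0.18 with a standard error of 0.07. Of all genes tested, 493 were lower at that p in this setting. *Hectd4* was at -0.15, *Huwe1* at -0.15 and *Mycbp2* at -0.14, with standard errors of 0.10, 0.11 and 0.11. The values of *Ubr4*, *Herc2* and *Rnf213* were -0.09, -0.09 and -0.10, and *Trip12* changed sign to 0.01 with a standard error of 0.08. The other long genes had a median of -0.06 after the same step, and well expressed ones -0.12. Removing the trend takes out change that follows length, whatever its source, but not all that long genes share. The 120 other genes of 12000 bp or more kept a median of -0.09, against -0.02 over all genes tested. What remains in the ligases is thus not shown to be apart from length, and the source of the trend was not tested.

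**Figure D4:**
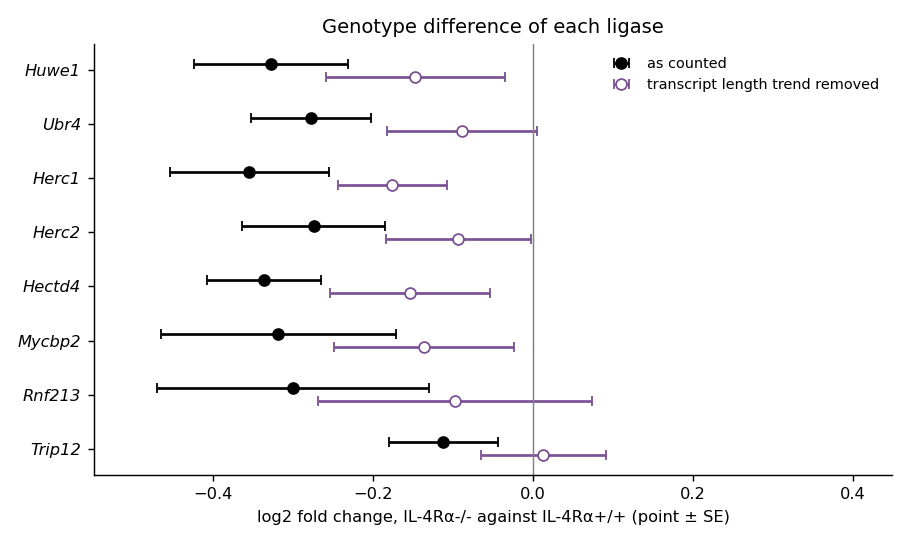
Log2 fold change of each ligase (x axis, point ± SE, 3 mice per genotype) as counted (filled) and after the trend with transcript length was removed (open). All 8 filled points lie below 0, from -0.35 to -0.11, and the open points lie between -0.18 and 0.01.

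Library measures moved with the genotype too. Reads on no annotated exon were 10.25% to 11.68% of reads in IL-4Rα+/+ and 8.874% to 9.682% in IL-4Rα-/- libraries. Such reads can lie in introns as well as outside genes. Reads mapping to several places were 8.301% to 8.86% against 9.025% to 9.355%. The library with the highest ligases, IL-4Rα+/+ replicate 2, had the largest share of reads on no annotated exon. The part of these differences in the levels of the ligases was not tested.

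Markers of other cells were compared by their summed CPM. Monocyte markers were high and overlapped, at 21841 to 26920 CPM in IL-4Rα+/+ and 23321 to 27690 CPM in IL-4Rα-/- libraries. Within both genotypes the libraries differed in markers of monocyte subsets, and of 15 monocyte markers 5 were higher and 10 lower in the knockout. *Ccr2*, typical of classical monocytes, was at 380, 1045 and 1668 CPM in IL-4Rα+/+ and 826, 2008 and 979 CPM in IL-4Rα-/- libraries, and *Ace*, typical of patrolling ones, at 2774, 2123 and 1088 CPM against 1745, 710 and 1604 CPM. Erythroid markers were higher in the knockout in 13 of 13 genes, 10 of them at an unadjusted p under 0.05 in edgeR, with sums of 84.3 to 144 CPM against 200 to 483 CPM, which did not overlap. Red pulp macrophage markers were higher in 12 of 12, at 3622 to 4137 against 4679 to 7351 CPM, and eosinophil and basophil markers in 10 of 11, at 82.3 to 96.7 against 141 to 222 CPM. B and plasma cell markers were higher in 11 of 14, at 1229 to 1540 against 1542 to 1855 CPM.

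Overlap was seen in the sums of the other lists. Neutrophil markers were higher in 12 of 13, at 65.2 to 283 against 140 to 692 CPM, and T and NK cell markers in 8 of 14, at 58.6 to 154 against 53.3 to 147 CPM. Dendritic cell markers were higher in 3 of 11, at 455 to 583 against 471 to 545 CPM, and megakaryocyte markers in 3 of 4, at 26.5 to 68.8 against 17.0 to 46.0 CPM, with *Gp1bb* at 0 in every library. Pancreatic enzymes were higher in 12 of 12 and summed to 10.5 to 55.2 against 19.6 to 375 CPM, with the highest sum in IL-4Rα-/- replicate 2. Without that library the median of the 8 ligases was -0.29 and 4 of them were lower at an unadjusted p under 0.05 in edgeR. Of all genes tested, 384 were lower at that p in the same setting. How far other cells bore on the levels of the ligases was not tested.

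Other ubiquitin genes were counted in lists by role. Among 21 HECT ligases outside the 8, 16 were lower and 5 higher, 5 were lower at an unadjusted p under 0.05, and the median was -0.12. *Itch*, a NEDD4-type ligase that restrains T helper 2 responses, was lowest at 339, 309 and 226 CPM in IL-4Rα+/+ and 205, 202 and 191 CPM in IL-4Rα-/- libraries, a log2 fold change of -0.55 with a standard error of 0.15. Its transcript of 5309 bp is short beside the giant ligases, and after removal of the length trend its value was -0.50 with a standard error of 0.14. *Ube3a*, the Angelman syndrome ligase that binds HERC2, was at -0.26 with a standard error of 0.06, and at -0.14 with the length trend removed, where it no longer had an unadjusted p under 0.05. The adjusted p-value of both genes in edgeR was 0.618. *Herc4*, outside the naming rule and chosen after its values were seen, was at -0.36 with a standard error of 0.13.

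The other UBR-box genes, relatives of *Ubr4* that bind N-degrons or share the fold, had 5 of 6 lower, 4 of them at an unadjusted p under 0.05, with a median of -0.24. *Ubr2* was at -0.35, *Ubr3* at -0.30 and *Ubr1* at -0.25, with standard errors of 0.09, 0.09 and 0.08. With the length trend removed they were at -0.25, -0.20 and -0.16, and *Ubr1* no longer had an unadjusted p under 0.05. Of 36 USP deubiquitinases, which take ubiquitin off, 28 were lower with a median of -0.08. The 3 lower at an unadjusted p under 0.05 were *Usp34* at -0.25, *Usp9x* at -0.26 and *Usp45* at -0.20, with standard errors of 0.08, 0.09 and 0.08. With the length trend removed they were at -0.10, -0.11 and -0.14, and none of the 3 kept an unadjusted p under 0.05.

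The upstream enzymes went the other way in number. Of 35 genes for ubiquitin, E1 and E2 enzymes, 29 were higher and 6 lower in the knockout, with a median of 0.07. Most are short, with a median transcript of 2618 bp. The giant of the list is *Birc6*, an E2 and ligase in a single protein of 4873 residues that holds back cell death. It was at 305, 305 and 249 CPM in IL-4Rα+/+ and 216, 187 and 219 CPM in IL-4Rα-/- libraries, a log2 fold change of -0.46 with a standard error of 0.11 (edgeR adjusted p = 0.618). With the length trend removed it was at -0.28 with a standard error of 0.08, still at an unadjusted p under 0.05. It passed DESeq2 (adjusted p = 0.135), as did 0.293% of the genes DESeq2 tested in the lower direction, and none of the 8 ligases did, whereas 0.279% of genes passed in the higher direction. *Ube2e3*, a small E2, was higher at 0.30 with a standard error of 0.08, and at 0.25 with the length trend removed. Among the E1 and E2 genes, 1 was lower and 2 were higher at an unadjusted p under 0.05, where 3.72% of all genes were higher.

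**Figure D5:**
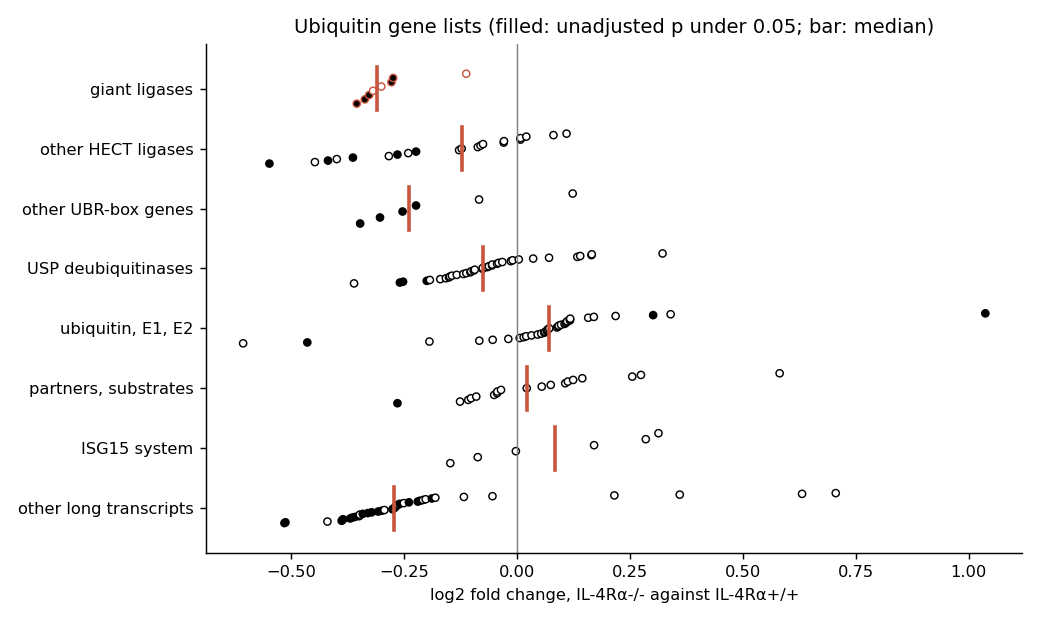
Log2 fold change of IL-4Rα-/- against IL-4Rα+/+ (x axis) for every tested gene of each list (y axis), with filled points for an edgeR unadjusted p under 0.05 and a bar at the median of each list. The 8 giant ligases all lie below 0 with a median of -0.31, next to -0.27 for other long transcripts, -0.12 for other HECT ligases and 0.07 for ubiquitin, E1 and E2 genes.

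Proteins that work with the giant ligases or are marked by them did not share the direction. Of 19 such genes, 9 were lower and 10 higher, with a median of 0.02, and only *Ube3a* had an unadjusted p under 0.05. All knockout libraries lay above all IL-4Rα+/+ libraries in 3 of the 19, against 7.63% of all genes, and below them in 1, against 7.87%. The 3 were *Myc* at 0.27, *Cdc6* at 0.58 and *Skp1a* at 0.14, with standard errors of 0.18, 0.28 and 0.08. *Myc* and *Cdc6* were low, at means of 9.80 and 5.90 CPM. *Mcl1*, the HUWE1 substrate, was at 1330 ± 132 CPM (SD, n = 3) in IL-4Rα+/+ and 1298 ± 44.6 CPM (SD, n = 3) in IL-4Rα-/- libraries, with overlap. *Kcmf1*, the partner of UBR4, had a log2 fold change of 0.11, *Neurl4*, the partner of HERC2, -0.11 and *Fbxo45*, the partner of MYCBP2, 0.05, each overlapping between the genotypes. These 4 genes were picked for their roles after their values were seen.

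RNF213 is induced by interferon and is known to bind the ubiquitin-like ISG15, so the ISG15 system was counted. Of its 6 genes, 3 were lower and 3 higher, and 0 had an unadjusted p under 0.05 in edgeR with genotype alone. With the replicate number as a block, *Isg15* at 0.31 and *Usp18* at 0.29 were higher at that p, and the rest of the list had none. Their edgeR adjusted p-value was 0.812, and 404 of all genes were higher at that p in this setting. *Isg15* had 34.5, 47.0 and 42.1 CPM in IL-4Rα+/+ and 42.6, 60.8 and 50.1 CPM in IL-4Rα-/- libraries, at a log2 fold change of 0.31 with a standard error of 0.16, while *Rnf213* was at -0.30.

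As a yardstick, 41 long transcripts of proteins that are not ubiquitin ligases were listed by name and 40 were tested. They were not matched to the ligases in length, with a median of 11065.5 bp against 15247 bp. Some were shorter than *Trip12*, among them *Tln1* at 8393 bp and *Nbeal2* at 8803 bp. Of the 40, 36 were lower, with a median log2 fold change of -0.27. At an unadjusted p under 0.05 in edgeR, 24 were lower, against 4.37% of all genes. DESeq2 called 6 lower, against 0.293% of the genes it tested. *Spen*, a corepressor, was at -0.39, *Nbeal2*, needed for granules of platelets and neutrophils, at -0.39, *Tln1*, which links integrins to actin, at -0.34 and *Vps13d*, a lipid transfer protein, at -0.39. Their standard errors of 0.07 to 0.08 were like that of *Hectd4*, whose log2 fold change was -0.34. With the length trend removed they were at -0.23, -0.27, -0.24 and -0.20, all 4 still at an unadjusted p under 0.05.

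Finally, 8601 genes with a mean of at least 10 CPM were ranked by Pearson's r, over the 6 libraries, of their log2 CPM with the mean standardised level of the 8 ligases. The 10 highest had r from 0.981 to 0.996 and were *Ubr1*, *Ankrd17*, *Atrx*, *Sft2d2*, *Pkd1*, *Ubap2l*, *Zzef1*, *Mbnl2*, *Cnot1* and *4932438A13Rik*. All 10 were lower in the knockout, with log2 fold changes of -0.44 to -0.11. This direction follows from the ranking, since the mean level of the ligases was itself lower in the knockout. Of the 10, 5 had transcripts longer than that of *Trip12*, a length that 317 other genes reached among all 13849 tested. With 6 points and 8601 genes, values of r this high are a description of likeness only.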

How the data were processed

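Poly(A), directional libraries were sequenced as single-end reads of 75 bp, which the authors mapped to GRCm38 with STAR 2.6.1a and deposited raw counts per gene, 1 file per mouse. Which of STAR's strand columns was kept is not given in the sources used here. Genes whose exons all lie within those of an opposite-strand gene numbered 470, and 172 of them had counts, which a count without strand would have left at 0. STAR's summary lines were kept out of library sizes and tests. Symbols and lengths came from GENCODE M21 (55154 of 55421 identifiers matched), and promoters from RefSeq.

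Genes were kept by filterByExpr (minimum count 10), scaled by TMM and tested with edgeR 4.0.16 (R 4.3.3) by quasi-likelihood over the 6 libraries with genotype alone, Benjamini-Hochberg adjustment and the study's threshold of 0.15. Log2 CPM used a prior count of 2. The alternatives were DESeq2 1.42.0, limma-voom (limma 3.58.1), other scalings and filters, a stricter threshold, the replicate number as a block, *Xist* as a covariate, removal of loess trends (span 0.5) with length or GC content, the median transcript length, and each mouse left out. Ligases and gene lists were chosen with earlier results of these data known, and no list was tested as a set. The genes named in each list were those at an unadjusted p under 0.05 with a mean of 10 CPM or more, at most 4 by smallest p. Some genes that this rule names are not reported here. The *Isg15*, *Usp18*, *Mcl1*, *Kcmf1*, *Neurl4*, *Fbxo45*, *Myc*, *Cdc6* and *Skp1a* values and the 2 monocyte markers were added after their values were seen. No source says how the mice were spread over preparations. The p-values thus measure the spread between libraries, in which mouse and preparation cannot be told apart. In simulated counts for 3 against 3 libraries (13686 genes), edgeR recovered 96% of 200 planted 4-fold changes and called 29 other genes. The ligases differed by only 1.08-fold to 1.28-fold, so the simulation does not tell whether changes of their size would be found.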

Additional observations from a re-analysis of the deposited data

Results flagged for a closer look

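Reads that no comparison of the ligases used differed between the genotypes. The share of reads mapping to several places was 9.025% in the lowest IL-4Rα-/- library against 8.86% in the highest IL-4Rα+/+ library. The share of reads that STAR left out as ambiguous between genes was 1.441% in the lowest IL-4Rα-/- library against 1.44% in the highest IL-4Rα+/+ library. The second gap is narrow. Neither was tested for a part in the levels of the ligases.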

How the results depend on the processing

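With edgeR and limma-voom, 0 genes passed the adjusted threshold in every alternative, while 1120 had an unadjusted p under 0.05, and DESeq2 called 80 genes, none of them a ligase. Removing the trend with transcript length left 1 ligase with an unadjusted p under 0.05, among 493 genes lower at that p. It moved the median log2 fold change to -0.12 for the 8 ligases and to -0.060 for the other long genes. *Trip12* then changed sign, at 0.013. By construction this step takes out the loess trend with length, though the median of the other long genes stayed below 0. The other 7 ligases were lower in all 16 alternatives. *Hectd4* had an adjusted p-value of 0.151 to 0.901 over them.

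Leaving out each mouse in turn gave 627 to 1724 genes with an unadjusted p under 0.05, 627 without IL-4Rα+/+ replicate 2, 638 without IL-4Rα-/- replicate 1 and 1724 without IL-4Rα+/+ replicate 3. It left 4 to 7 ligases lower at that p, where 324 to 998 of all genes were lower. The median was -0.36 to -0.23 for the ligases and -0.24 to -0.16 for the other long genes. No gene passed the adjusted threshold in any of these (0 genes). Whether the replicate numbers pair the libraries is not known. Once the mean of each genotype was subtracted, libraries numbered 1, 2 and 3 correlated with their namesakes at 0.185, -0.271 and -0.296. Such a correlation over all genes cannot decide this, because mice of the same genotype also differed widely, as in the markers of monocyte subsets. With the replicate block, 0 genes passed and 765 had an unadjusted p under 0.05, 361 of them lower. At that p 4 ligases were lower (*Herc2* no longer), and the adjusted p of every ligase was 0.812. Of the 3 IL-4Rα+/+ libraries, 1 correlated best with the knockout library of its own number. With 3 mice per genotype, no exact test of a single gene can go below 0.1.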
